A study of Mus musculus with 6 samples.

Results

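The Isg15 conjugation system comprises Isg15, a ubiquitin-like modifier, and the enzymes that attach it to proteins or take it off again. Its 5 genes, Isg15, Uba7, Ube2l6, Herc6 and Usp18, were picked by symbol, and each matched a single row among the 53797 genes listed in the deposited table. MLO-Y4 is a mouse cell line with osteocyte-like features, derived from long bone cells of a mouse carrying a transgenic T antigen under the osteocalcin promoter. The LIPUS group consisted of 3 cultures that received low-intensity pulsed ultrasound at 1.5 MHz and 30 mW/cm2 for 20 min, and the Control group of 3 untreated cultures of the same line. After a further 30 min in the incubator, RNA was extracted. The table gives a single FPKM (fragments per kilobase of exon, scaled to the number of mapped fragments) for each group, so no value, SD or depth of a single culture was seen, and no test across cultures was made. Cells of both groups shared a culture plate, and in a principal component analysis of the study a control culture lay apart from the other control cultures. Its part in the values below was not tested, since the pooled values cannot be split.

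Isg15 is among the most strongly interferon-induced genes in mammalian cells. Its protein folds into a tandem of ubiquitin-like domains and is joined to lysines of target proteins through its C-terminus, in a cascade like that of ubiquitin. Uba7 is the activating enzyme (E1), Ube2l6 the conjugating enzyme (E2) and Herc6 the ligase (E3) that does this work in mouse cells, where Herc5, the main human ligase, is missing. Usp18 removes the modifier again, and apart from this activity it binds the type I interferon receptor and dampens its signalling. Type I interferon induces these genes through the factor ISGF3, a complex that includes Stat2 and Irf9 and binds the interferon-stimulated response element.

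The core of that element was searched in the RefSeq promoter windows of GRCm38.p6, which run from 250 bases before to 50 bases after the start of a gene. The motif was GAAANNGAAA, read on both strands with overlaps counted, and windows of 4 members were found (Isg15, Uba7, Ube2l6 and Herc6). The Isg15 window held 3 matches, which overlap each other and lie from 78 to 57 bases before the start. Of all 32851 windows, 3.44% held at least 1 match and 0.0152% held 3 or more, namely those of Cybb, Gm33857, Gm3512, Isg15 and Washc3. Among the 43 windows found for the listed interferon-stimulated genes, which belong to 37 genes, 19 (44.2%) held at least 1 match. The windows of Uba7, Ube2l6 and Herc6 held no exact match. The following 150 bases end at the last base before the Isg15 start (chr4:156200819-156200968, minus strand), with the run of 3 matches in capitals, and are shown because Isg15 is the most abundant gene of the system.

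Isg15: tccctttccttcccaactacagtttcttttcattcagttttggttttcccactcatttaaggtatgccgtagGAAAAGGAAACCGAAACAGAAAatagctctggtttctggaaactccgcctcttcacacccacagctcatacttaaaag

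Uba7 is shown for contrast. The last 30 bases before its RefSeq start (chr9:107975537-107975566, plus strand) contain a pair of overlapping stretches, from 27 to 12 bases before the start, that differ from the reverse form of the motif by 1 substitution each, and these are in capitals. The RefSeq start of Uba7 lies 62 bases inside the gene as GENCODE bounds it, so these bases fall within the GENCODE gene. Single stretches with 1 substitution also lay in the windows of Herc6, from 197 to 188 bases before the start, and Isg15, from 112 to 103 bases before it. Uba7 had a further stretch just after its RefSeq start, and the Ube2l6 window held none. This looser search was added after the sequence had been seen, and 35.4% of all windows hold such a stretch or an exact match. Matches are letters in a window and not sites shown to be bound.

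Uba7: tagTTTCACTTTTGGTTTCctgaaatcata

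All 5 genes had a lower FPKM in LIPUS-treated than in control cells, and in 4 of them the difference reached 1.5-fold. Over the 11999 genes with an FPKM of at least 1 in either group, 9.26% were lower by at least 1.5-fold and 8.98% were higher. All 5 members passed that minimum. Ratios are given here as log2 of LIPUS over Control after 0.1 was added to each FPKM, which slightly understates the difference of low genes. The median ratio of the members was -0.79 on this log2 scale, and that of all 11999 genes was -0.000469. The FPKM of the 5 genes summed to 481.9 in control and 262.3 in LIPUS-treated cells.

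Isg15, the modifier itself, had an FPKM of 326 in control and 172 in LIPUS-treated cells. Its log2 ratio was -0.92, so that 52.7% of the control level was left. Ranked by FPKM over the listed genes, Isg15 stood at place 260 in control and at place 537 in LIPUS-treated cells. Of the 11999 genes, 4.54% had a ratio as low or lower. Isg15 lies on chromosome 4 of GRCm38 from 156199424 to 156200818 on the minus strand, and its exons cover only 756 bases in 2 exons.

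Uba7, which activates Isg15 and passes it to the E2, was the least abundant gene of the system. The table gave it 4.95 FPKM in control and 3.04 FPKM in LIPUS-treated cells, a log2 ratio of -0.68. With 1 in place of 0.1 added to each FPKM the ratio was -0.56, which is short of 1.5-fold. Uba7 was also the only member with the status NOTEST, which Cuffdiff assigns when it makes no comparison, while the other 4 had the status OK. Uba7 lies on chromosome 9 from 107975505 to 107984060 on the plus strand. Its entry in the table carries the coordinates of a stretch that 10 listed genes share. It overlaps the gene model Gm20661 on the same strand over 233 exonic bases, but Gm20661 is listed at 0 in both groups.

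Ube2l6, the E2 that receives Isg15 from Uba7, had an FPKM of 45.01 in control and 25.99 in LIPUS-treated cells. This is a log2 ratio of -0.79, with 57.8% of the control level left. On the FPKM scale, Ube2l6 was 9.09 times as abundant as Uba7 in control and 8.54 times in LIPUS-treated cells. It lies on chromosome 2 from 84798828 to 84810335 on the plus strand, and no other gene model overlaps it.

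Herc6, the ligase, stood apart from the other 4 members. Its FPKM was 19.6 in control and 17.7 in LIPUS-treated cells, a log2 ratio of -0.15, and 32% of the 11999 genes had a ratio as low or lower. Herc6 lies on chromosome 6 from 57581000 to 57664632 on the plus strand, and the transcript model Gm45193 overlaps it on the same strand with 1269 shared exonic bases. Gm45193 had an FPKM of 7.68 in control and 3.19 in LIPUS-treated cells. Fragments from the shared bases could be assigned to either model, so the value of Herc6 is uncertain. With the FPKM of both models added together, the values were 27.3 and 20.9 and the log2 ratio was -0.39, still under 1.5-fold.

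Usp18, the protease that removes Isg15, had the lowest ratio of the 5, while the difference in FPKM was largest for Isg15. Its FPKM was 85.9 in control and 43.5 in LIPUS-treated cells, a log2 ratio of -0.98, and 50.7% of the control level was left. Usp18 was the second most abundant gene of the system in both groups, after Isg15. It lies on chromosome 6 from 121245906 to 121270917 on the plus strand. The antisense model Gm44148 shares 124 exonic bases with it, and had an FPKM of 2.5 in control and 2.87 in LIPUS-treated cells, far below Usp18.

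**Figure D1:**
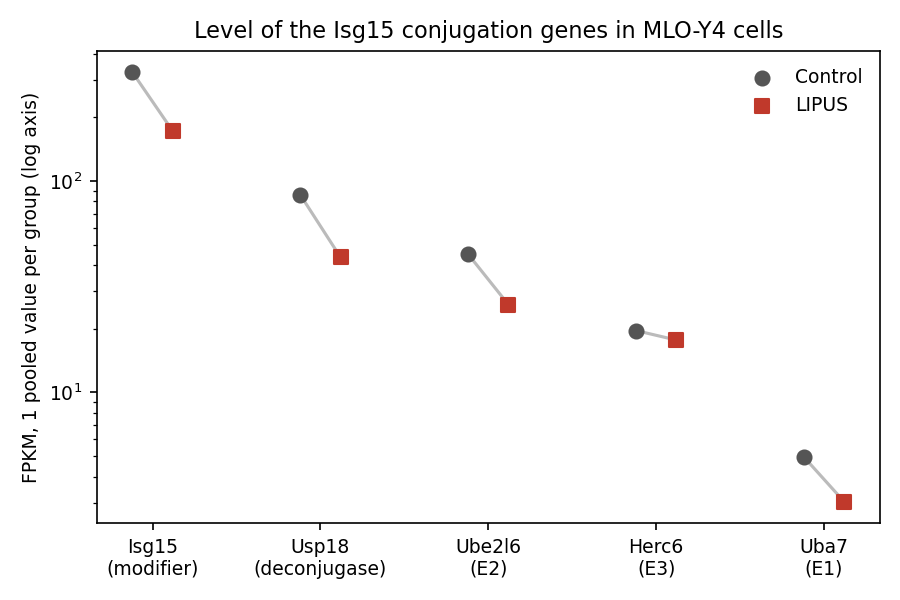
FPKM of the 5 genes on a log axis, with the pooled value of the Control group as a grey circle and that of the LIPUS group as a red square; pooled values have no error bars. Isg15, Usp18, Ube2l6, Herc6 and Uba7 follow each other in this order in both groups, and the line of Herc6 (19.6 to 17.7 FPKM) is the flattest.

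The order of the levels was the same in both groups: Isg15, Usp18, Ube2l6, Herc6 and Uba7. Because Isg15 and Usp18 were lower by similar factors, there were 3.8 units of Isg15 FPKM for each unit of Usp18 FPKM in control and 3.96 in LIPUS-treated cells. Relative to Ube2l6, Isg15 stood at 7.25 and 6.62, and relative to Uba7 at 66.0 and 56.6. Of the ratios of Isg15 to each enzyme, that to the ligase differed most between the groups. Isg15 FPKM per Herc6 FPKM was 16.7 in control and 9.74 in LIPUS-treated cells.

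**Figure D2:**
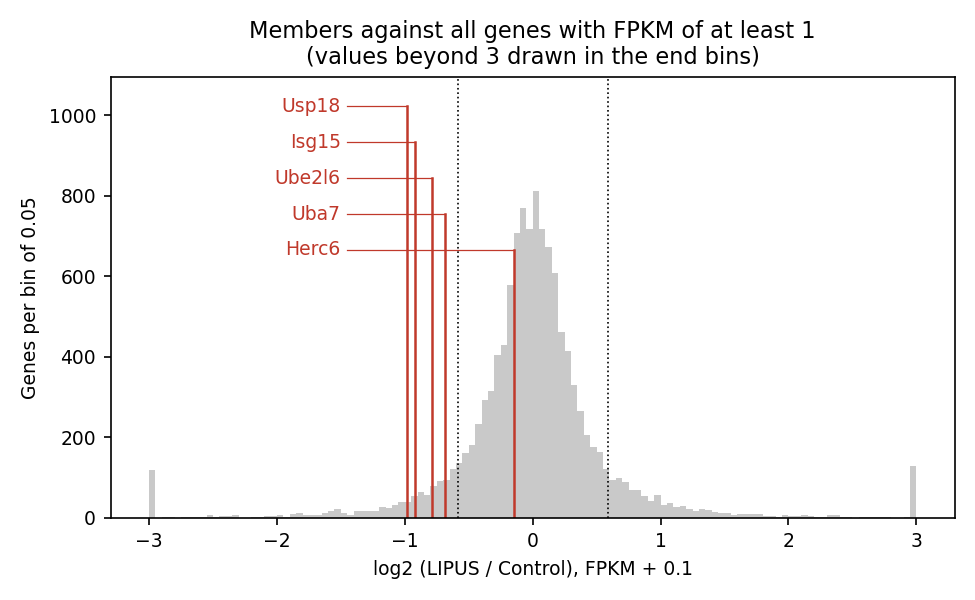
Distribution of the log2 ratio of LIPUS over Control (FPKM plus 0.1) over the 11999 genes with an FPKM of at least 1, in bins of 0.05, with a red line for each member and dotted lines at 1.5-fold. Usp18, Isg15, Ube2l6 and Uba7 lie in the lower tail, between -0.98 and -0.68, and Herc6 lies within the central peak at -0.15.

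Each member was then set beside the family of enzymes or modifiers to which it belongs, to see whether the families as a whole were lower. Isg15 was the only one of 19 measured entries of ubiquitin-like modifiers that was lower by at least 1.5-fold (5.26%, against 9.26% of all genes), and none was higher by as much. The other 18 had log2 ratios between -0.36 and 0.36 with a median of 0.0038. Rps27a, which encodes ubiquitin fused to a ribosomal protein, had an FPKM of 661 in control and 603 in LIPUS-treated cells. The polyubiquitin gene Ubb had 169 and 139 FPKM. Ubd, another modifier with tandem ubiquitin-like domains, was listed at 0 in both groups. Isg15 made up 8.48% of the summed FPKM of these modifiers in control and 4.66% in LIPUS-treated cells, and moved from place 4 to place 6 among them.

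Of the 10 activating enzymes, Uba7 alone (10%, near the 9.26% of all genes) was lower by at least 1.5-fold. The other 9 lay between -0.25 and 0.13 on the log2 scale. Among them, Uba1, the main E1 of ubiquitin, had an FPKM of 141 in control and 127 in LIPUS-treated cells, and Uba6 had 9.42 and 8.40. Uba2, an E1 subunit for Sumo, had 63.6 and 63.7 FPKM. Ube2l6 had the lowest ratio of the E2 genes that had an FPKM above 0 in both groups, with Ube2d1 next to it at 24.4 and 17.5 FPKM. Its closest relative, Ube2l3, which works with ubiquitin, had 82.8 FPKM in control and 83.7 FPKM in LIPUS-treated cells. The 33 other entries with an Ube2 symbol had a median log2 ratio of -0.03. Besides Ube2l6 only the pseudogene Ube2n-ps1, at 2.16 FPKM and listed at 0 with LIPUS, was lower by at least 1.5-fold. With Ube2l6 this was 2 of 34 entries (5.88%), against 9.26% of all genes. Ube2w was the only entry higher by as much, from 8.53 to 12.8 FPKM, where 8.98% of all genes were higher.

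For the ligase the order was different. Of the 5 HERC genes, Herc1 had the lowest log2 ratio, -0.70, with 9.98 FPKM in control and 6.11 FPKM in LIPUS-treated cells, and Herc6 came second. Herc2 had 7.04 and 6.71 FPKM, Herc4 had 13.0 and 15.7 FPKM, and Herc3, another of the small HERC genes, had 7.85 and 11.4 FPKM. Herc6 was the most abundant HERC gene in both groups. Usp18 shared its place in the USP family with Usp3, which had 11.4 and 5.71 FPKM and a log2 ratio of -0.98 as well. Of the 43 measured genes with a USP symbol, 4 were lower by at least 1.5-fold (Usp3, Usp18, Usp45 and Usp6nl), which is 9.3% and near the 9.26% of all genes, and none was higher by as much. Usp6nl is not a protease in spite of its name. The median over the 42 genes other than Usp18 was -0.07.

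**Figure D3:**
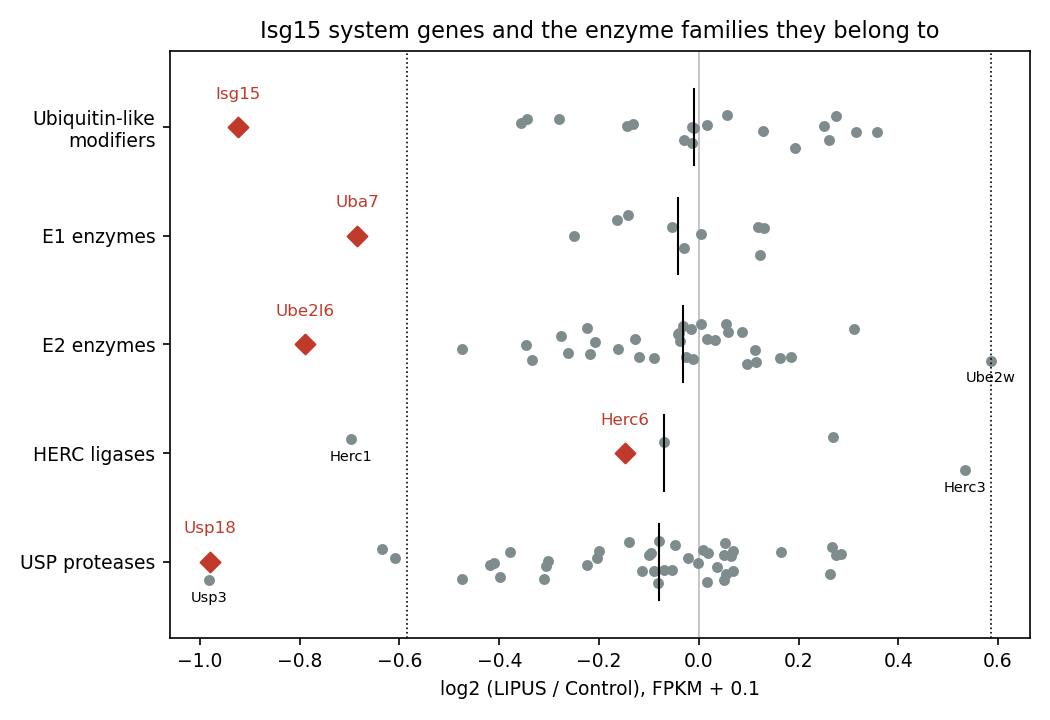
Log2 ratio of LIPUS over Control (FPKM plus 0.1) for genes with an FPKM of at least 1 in either group and above 0 in both, by family, with members as red diamonds, other genes as grey points, family medians of the points drawn as black bars and dotted lines at 1.5-fold; vertical scatter has no meaning. Isg15, Uba7 and Ube2l6 lie at the low end of their families, Usp18 lies beside Usp3, and Herc6 lies near the middle of the HERC genes.

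Genes that work with the system or regulate it were examined next. Of 9 partner genes 1 (11.1%) was lower by at least 1.5-fold, near the 9.26% of all genes. Stat2, through which Usp18 is brought to the interferon receptor, was that gene, with 23.2 FPKM in control and 12.6 FPKM in LIPUS-treated cells. Ifnar2, the receptor chain that Usp18 binds, had 58.2 and 69.7 FPKM. Ligases reported to add Isg15 beside Herc6 were Trim25, with 25.6 and 21.7 FPKM, and Arih1, with 31.8 and 34.0 FPKM. Usp16 and Usp21, which can also remove Isg15, had log2 ratios of -0.05 and -0.31. Itgal, an integrin chain reported as a receptor of secreted Isg15, had 8.73 FPKM in control and 6.45 FPKM in LIPUS-treated cells.

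Of 15 genes whose proteins are known to be modified by Isg15, 2 (13.3%, against 9.26% of all genes) were lower by at least 1.5-fold and none was higher by as much. Ddx58, the sensor RIG-I and itself induced by interferon, had 58.6 FPKM in control and 31.7 FPKM in LIPUS-treated cells. The median over the 15 genes was -0.13 on the log2 scale. Irf3, the factor that turns on interferon genes, had 19.8 and 28.5 FPKM, and Ube2n, an E2 of ubiquitin, had 240 and 236 FPKM.

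The 4 lower members were accompanied by most other interferon-stimulated genes. Of 47 such genes listed without the members, 36 (76.6%) were lower by at least 1.5-fold and 1 was higher, against the 9.26% and 8.98% over all genes. This list was drawn up with earlier results of these data known, and is no independent evidence of its direction. Its median log2 ratio was -0.88, close to the values of Isg15 and Usp18 (-0.92 and -0.98). The lowest ratios belonged to Mx1 (1.23 FPKM in control and 0.251 FPKM in LIPUS-treated cells), Ifit3b, Ifit3 and Ifit1, at -1.92, -1.77, -1.56 and -1.37. Ifi27 was the exception on the high side, with 38.7 FPKM in control and 81.5 FPKM in LIPUS-treated cells. Listed genes with ratios near that of Herc6 alone (-0.15) were Rsad2 (-0.17), Ifit2 (-0.14), Tap1 (-0.12) and Psmb8 (-0.09). With Gm45193 added, the ratio of Herc6 was -0.39 and lay further from these.

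Among genes of interferon signalling there were differences in both directions. Of the 12 with an FPKM of at least 1, 2 (16.7%) were lower and 2 (16.7%) were higher by at least 1.5-fold, against 9.26% and 8.98% of all genes. Stat2 was among the lower genes, while Irf9, its partner in ISGF3, had 24.7 FPKM in control and 23.1 FPKM in LIPUS-treated cells. Irf7 had 124 and 84.0 FPKM and Irf1 had 18.6 and 12.5 FPKM, both just under 1.5-fold. Socs1, a feedback inhibitor of Jak kinases, was higher, with 6.71 and 11.04 FPKM, as was Tyk2, with 2.36 and 3.82 FPKM. The receptor chain Ifnar1 had 16.4 and 15.7 FPKM. Of the interferon genes listed, Ifnb1 had 0.646 FPKM in control and 0.367 FPKM in LIPUS-treated cells, Ifna4 had 0.607 FPKM and was listed at 0 with LIPUS, and Ifnl2 and Ifnl3 were listed at 0 in both groups.

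**Figure D4:**
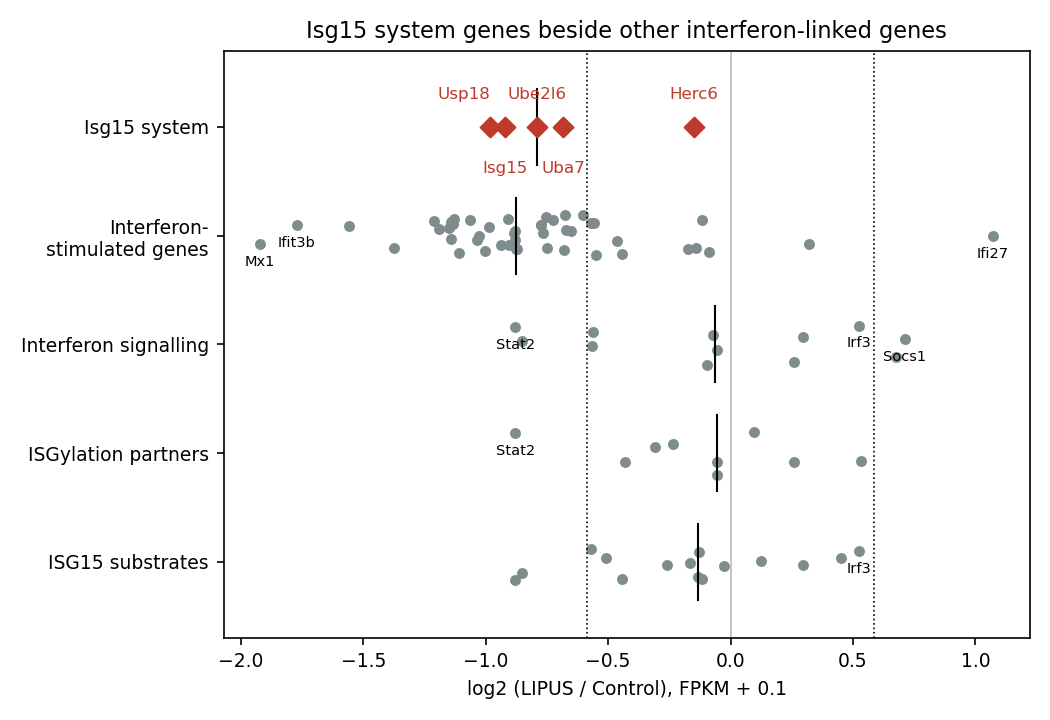
Log2 ratio of LIPUS over Control (FPKM plus 0.1) for the 5 members (red diamonds) and for 4 lists of interferon-linked genes (grey points) with an FPKM of at least 1 in either group, with list medians as black bars and dotted lines at 1.5-fold; vertical scatter has no meaning. The interferon-stimulated genes spread around -0.88, as do 4 of the members, while the medians of the other lists lie between -0.13 and -0.06.

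Genes with the most similar pair of levels were found by their distance from a member in the plane of both log2 FPKM values, a likeness over 2 pooled values only. The 5 nearest to Usp18, among them Sharpin, Ly6c1, Parp12 and Ndufc1, lay at distances from 0.168 to 0.259. Around Isg15 the plane was sparser. Its nearest genes were Snord22, Alpl, Ahcyl1, Phb and Nop56, at distances from 0.194 to 0.516. None of these 5 except Snord22 and Alpl was lower by 1.5-fold.

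To see whether the lower levels extended to the surroundings of each gene, the 3 nearest measured genes on either side of every member were examined. Of these 30 neighbours, 4 were lower and 2 were higher by at least 1.5-fold, where 9.26% and 8.98% of all genes were. Among the 23 neighbours with an FPKM of at least 5 in either group, 2 were lower and 1 was higher. The shares of all genes at that minimum were not computed. At a minimum of 10 they were 4% lower and 4.15% higher. Gm45193, one of the lower neighbours, overlaps Herc6 as described above. Beside Isg15, Agrn, which begins 1.94 kb away, had 24.5 FPKM in control and 20.6 FPKM in LIPUS-treated cells, and Plekhn1 had 11.3 and 11.5 FPKM. AW011738, 2.49 kb from Isg15 on the other side and the opposite strand, had 2.48 and 0.386 FPKM. Next to Uba7, Fam212a, 0.163 kb away on the opposite strand, had 6.88 FPKM in control and 4.03 FPKM in LIPUS-treated cells. Ip6k1, the gene after it, had 9.69 and 14.5 FPKM. Timm10, the first measured gene after Ube2l6, had 43.7 and 39.7 FPKM, and Slc43a1 beyond it had 1.86 and 0.838 FPKM. Around Usp18, Bid had 31.1 FPKM in control and 21.1 FPKM in LIPUS-treated cells, a log2 ratio of -0.56 and just under 1.5-fold lower. Mical3 had 11.3 and 10.9 FPKM and Slc6a12 had 17.5 and 15.7 FPKM. The pseudogenes Gm26712, 24.8 kb from Herc6, and Gm17812, 337 kb from Usp18, were the neighbours on the high side. Gm17812 was listed at 0 in control cells. Other neighbours also lay far off, such as Bid (329 kb from Usp18), Fkbp9 (702 kb from Herc6) and M6pr (1038 kb from Usp18).

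**Figure D5:**
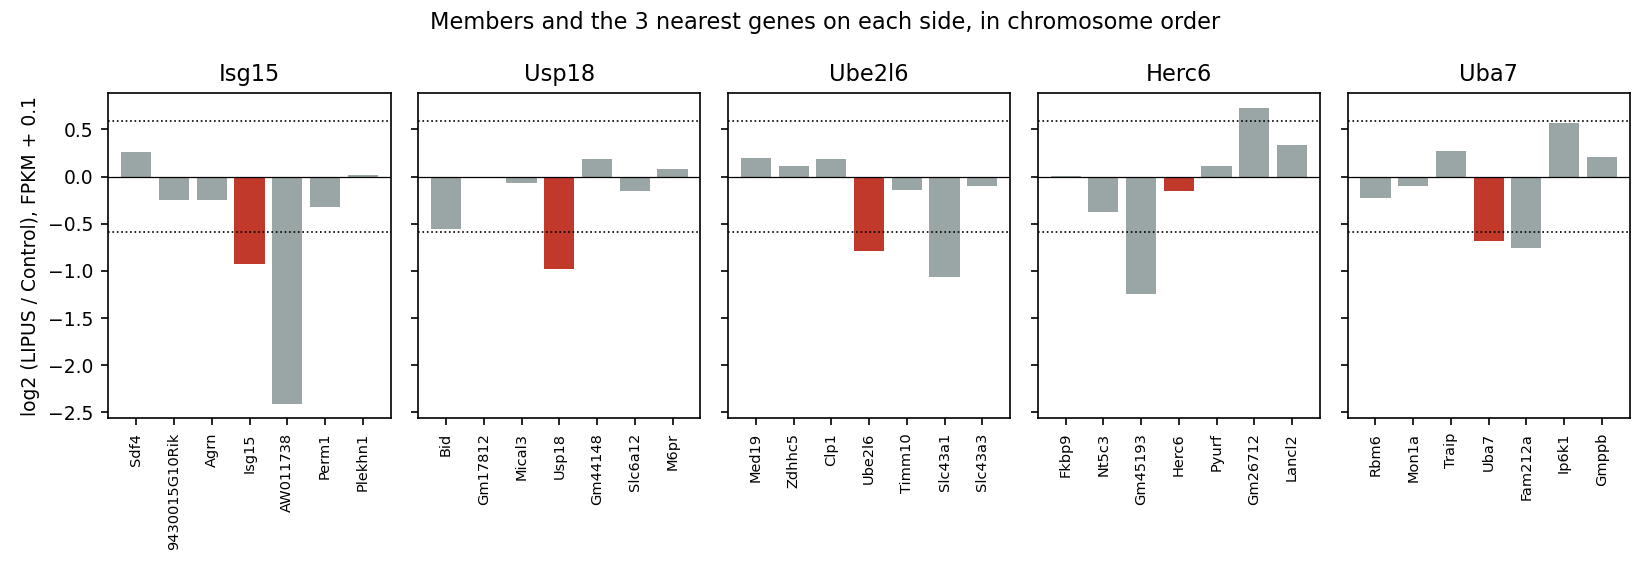
Log2 ratio of LIPUS over Control (FPKM plus 0.1) of each member (red) and of the 3 measured genes on either side (grey), in chromosome order and not to distance, with dotted lines at 1.5-fold; no bar is drawn for Gm17812, which is listed at 0 in control cells. Of the 30 neighbours, 4 pass the lower line, namely AW011738, Slc43a1, Gm45193 and Fam212a.

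The markers of the labelled cell type and of immune cells were read in the same table. Of 12 osteocyte and osteoblast genes, 8 had an FPKM of at least 1, of which 2 (25%) were lower and 2 were higher by at least 1.5-fold, against 9.26% and 8.98% of all genes. Spp1, Col1a1, Pdpn and Gja1 were abundant, with 4514, 891, 295 and 176 FPKM in control cells. Alpl (293 and 190 FPKM) and the osteoblast factor Runx2 (24.4 and 14.8 FPKM) were the lower genes with LIPUS. The mature osteocyte genes Sost, Fgf23 and Mepe were listed at 0 in both groups, while the higher genes were Dmp1, with 3.04 and 7.65 FPKM, and Bglap, listed at 0 in control and at 1.58 FPKM with LIPUS. Of 14 immune cell marker genes, which filled 15 entries, 11 entries were at 0 in both groups, among them Ptprc, Adgre1, Itgam, Cd3e and Ncr1. The 14 markers summed to 15.8 FPKM in control and 12.8 FPKM in LIPUS-treated cells. The myeloid genes Cd68 (5.32 and 1.72 FPKM) and Lyz2 (2.01 and 0.189 FPKM) were lower with LIPUS like the members, while Cd14 had 8.19 and 10.6 FPKM. The part of these markers in the lower level of the Isg15 genes was not tested. In RNA of whole cultures, fewer expressing cells and less RNA per cell cannot be told apart.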

How the data were processed

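RNA-seq of 6 MLO-Y4 cultures (3 LIPUS, 3 Control) was analysed from a single gene table. Paired-end reads had been trimmed (Trimmomatic 0.36) and mapped to the GRCm38 genome (TopHat 2.1.0, Bowtie 2.2.6.0). FPKM came from Cufflinks and Cuffdiff with Ensembl transcripts; the submitters' processing notes give Cufflinks 2.1.1 and the methods another version. The authors deposited 1 FPKM per group, pooled over its cultures. Their fold change, test statistic, p-value, q-value and significance columns were not used. The study's methods give a nominal number of reads per sample, but the table holds neither counts nor values per culture, so the depth reached in each library could not be read from it, and no SD, interval or test of differences between cultures was computed here.

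Ratios were computed as log2((LIPUS + 0.1)/(Control + 0.1)) over 11999 genes with an FPKM of at least 1 in either group, and a 1.5-fold difference was counted. Named genes were the members, listed genes past 1.5-fold (the extremes of long lists) or defining a role, neighbours, and the 5 nearest genes by level. Members and lists were chosen with earlier results of these data known. GENCODE M21 (GRCm38) gave positions and matched 99.9% of these genes, and RefSeq gave promoters. The comparison of proteins that had been planned was not made, and some listed genes are not reported here by name. Python 3.11.15, numpy 2.4.6, pandas 2.3.3 and matplotlib 3.10.9 were used, and the counting step was tested on simulated data.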

Additional observations from a re-analysis of the deposited data

How the results depend on the processing

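The log2 ratios of the 5 members kept their direction and stayed within 1.5 times their value under all 20 recalculations (pseudocounts of 1 and 0, centring on the median and scaling to the upper quartile). Centring and scaling could hardly change a ratio, since the median over all genes was -0.000469 and the log2 shift of the upper quartile was -0.0012. The member ratios ranged from -0.98 to -0.97 for Usp18, around -0.92 for Isg15, from -0.79 to -0.77 for Ube2l6, from -0.70 to -0.56 for Uba7 and from -0.15 to -0.14 for Herc6. With a pseudocount of 1, Uba7 no longer reached 1.5-fold and 3 members were lower by that much. Of all genes, 6.79% were lower and 6.7% higher at this setting. Adding Gm45193 to Herc6, chosen after seeing the data, gave -0.39. At a fold of 2, 0 members and 16 interferon-stimulated genes were lower, and 481 of all genes (4.01%) were lower and 481 (4.01%) higher. At a threshold of a level 25% higher in either group, 4 members were lower. The counts over all genes were then 2246 (18.7%) lower and 2162 (18%) higher. With no minimum FPKM, 4 members were lower, and the counts over all genes were 2729 (16.6%) and 2559 (15.5%). With a minimum of 10 they were 281 (4%) and 292 (4.15%), and over genes with the status OK 380 (4.67%) and 378 (4.64%). Uba7 dropped out under the last 2 settings, leaving 3 of 4 members lower. No paired analysis was possible because the table holds pooled values only, and for the same reason no culture could be left out. No value states how far the cultures differed, and Uba7 had the lowest FPKM of the members.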
